A study of Rattus norvegicus with 6 samples.

Results

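Alveolar type 1 and keratin transcripts were followed in whole lung of rats given monocrotaline (MCT), a plant alkaloid that injures the pulmonary vessels and is used to produce pulmonary hypertension. The set held 10 genes of the 23802 in the table, taken by symbol, with no threshold on their values: the 7 type 1 genes Ager, Hopx, Rtkn2, Clic5, Cav1, Lmo7 and Akap5, and the 3 keratins Krt7, Krt8 and Krt18. Polyadenylated RNA was sequenced from 3 control and 3 MCT samples of lung. All came from male wild-type Sprague-Dawley rats of 200 to 250 g. The MCT rats received 1 dose of 60 mg/kg and the controls saline, and lungs were taken 4 weeks later. Saline was given under the skin, and the labels name both an intraperitoneal and a subcutaneous route for MCT. The labels do not state that the samples are separate animals. The p-values therefore reflect only how far these 6 samples vary, part of which may be technical.

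Type 1 cells are the thin, flat cells that cover most of the alveolar surface and form the air side of the gas exchange barrier. They are replaced from alveolar type 2 cells, the cuboidal makers of surfactant. In injured lung that replacement can pass through a transitional state marked by Krt8 and its partner keratins, while the transcripts of mature type 1 cells are still low. Keratins build filaments from pairs of a type I and a type II chain: Krt18 is a type I chain, and Krt7 and Krt8 are type II chains. Simple epithelial keratins are also made in airway epithelium and mesothelium, and Cav1 and Clic5 are also made in endothelium.

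All 7 type 1 genes had a lower mean in MCT lung, and 2 of them, Lmo7 and Rtkn2, fell by the test. The 3 keratins differed among themselves: Krt7 was higher in each MCT library than in any control, Krt8 overlapped between the groups and Krt18 was lower in each MCT library, none of them past the threshold. By edgeR's quasi-likelihood test with Benjamini-Hochberg adjustment over the 15250 genes tested, all 10 members were tested, 2 were lower and 0 were higher. The same rule called 5.11% of all tested genes lower and 8.01% higher, 13.1% in all. At an unadjusted p under 0.05 there were 5 type 1 genes and 1 keratin, Krt18, all lower, where 14.2% of all tested genes were lower and 30.0% passed in either direction. DESeq2 called 5 members lower, and 7.75% of the genes it tested. Limma-voom and each FPKM scale called 1 member lower, and 0 were called with libraries scaled to pan-epithelial genes or with the replicate number as a block. The median log2 fold change was -0.64 over the 7 type 1 genes and 0.0645 over the 3 keratins, against -0.0127 over all tested genes.

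Summed counts ran from 13525912 to 17916134 per library. For the type 1 genes, MCT replicate 2 was the highest MCT library in 7 of 7 and lay above the lowest control in 3. MCT replicates 1 and 3 lay below every control in 7 of 7. Control replicate 3 was the highest control in 5 of the 7. The shares of all tested genes with these orders were not computed. MCT replicate 2 was also the highest MCT library for the summed CPM of endothelial and of caveolar genes. Without MCT replicate 2 there were 4 members lower, Rtkn2, Clic5, Cav1 and Lmo7. Without control replicate 1, control replicate 3, MCT replicate 1 or MCT replicate 3 there were 0, and without control replicate 2 there was 1, Lmo7. The count over all tested genes moved the same way. It was 779 lower with all libraries, 978 without MCT replicate 2 and 212 to 591 without any 1 other library.

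**Figure D1:**
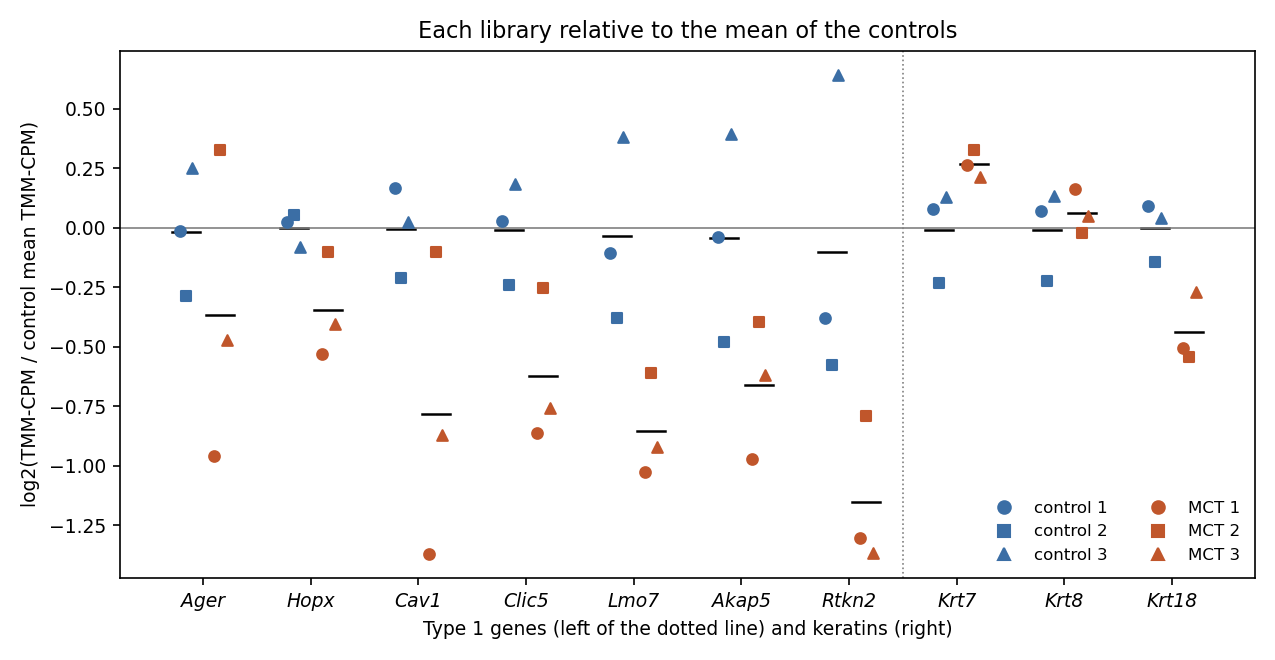
Level of each member in each library relative to the mean of the 3 controls, on a log2 scale of TMM-normalized CPM, which is the count scaled to the library's effective size. Blue points are controls, orange points MCT libraries, marker shapes give the replicate, and the short black lines are group means of the log2 values. MCT replicates 1 and 3 sit below every control for all 7 type 1 genes, while MCT replicate 2 lies above every control for Ager.

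Levels between genes were compared on the authors' FPKM, which divides by gene length. In control lung Ager stood highest at 1350 ± 283 FPKM (SD, n = 3), followed by Hopx at 1066 ± 28.1 FPKM, Cav1 at 615 ± 78.2 FPKM and Clic5 at 320 ± 36.9 FPKM. The 3 keratins came after these, with Krt7 at 178 ± 25.4 FPKM, Krt8 at 134 ± 19.1 FPKM and Krt18 at 47.7 ± 4.32 FPKM (SD, n = 3). Lmo7, at 109 ± 33.1 FPKM, lay between Krt8 and Krt18, and Akap5 and Rtkn2 were lowest at 38.4 ± 12.5 and 26.04 ± 13.9 FPKM (SD, n = 3). Among neighbours in that order, the control values of Ager and Hopx overlapped, as did those of Krt7 and Krt8, Krt8 and Lmo7, Krt18 and Akap5, and Akap5 and Rtkn2. The order of the 10 means was the same in MCT lung. There Cav1 overlapped Clic5 and Clic5 overlapped Krt7, while Lmo7 no longer overlapped Krt8: Lmo7 ran from 53.5 to 70.1 FPKM and Krt8 from 129 to 150 FPKM.

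**Figure D2:**
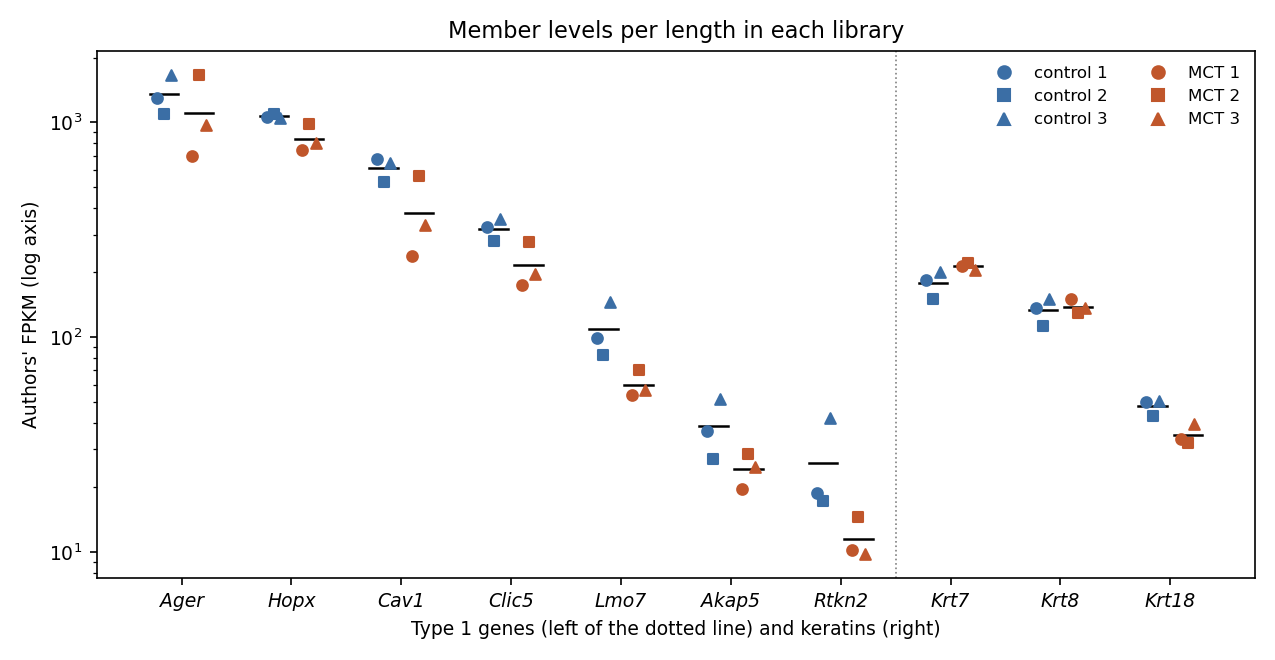
Authors' FPKM of each member in each library on a log axis, with type 1 genes left of the dotted line and keratins right. Blue points are controls, orange points MCT libraries and short lines group means. Ager and Hopx lead in both groups, and Rtkn2 is the lowest of the 10 with means of 26.04 FPKM in control and 11.6 FPKM in MCT lung.

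Lmo7 encodes a LIM domain protein that links cell junctions to actin. Control replicates 1 to 3 measured 422, 350 and 593 CPM of Lmo7, where CPM is the count scaled to the library's effective size. MCT replicates 1 to 3 measured 223, 298 and 240 CPM. All 3 MCT libraries lay below all 3 controls, the nearest pair being control replicate 2 and MCT replicate 2. The fall was 1.79-fold, a log2 fold change of -0.84 (SE 0.21, adjusted p = 0.0336, edgeR). Rtkn2 encodes rhotekin 2, which is enriched in type 1 cells. Its levels were 54.7, 47.7 and 111 CPM in controls and 28.8, 41.0 and 27.6 CPM in MCT lung, again with no overlap. The fall was 2.19-fold, a log2 fold change of -1.13 (SE 0.32, adjusted p = 0.0491, edgeR). With control replicate 3, the highest of the 6, left out, the Rtkn2 value was -0.65 (adjusted p = 0.114). Lmo7 was no longer called with replicate 1 or 3 of either group left out (adjusted p = 0.0608 to 0.11). Rtkn2 lost the call with any 1 library left out, except MCT replicate 2 (adjusted p = 0.0535 to 0.143). RefSeq places other genes over Lmo7, Rtkn2, Hopx and Clic5. Without a stated strand setting, reads of the overlapping genes cannot be told apart from those of these members. In bulk lung, fewer type 1 cells and less of these transcripts per cell cannot be told apart.

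The upstream sequences of these 2 called genes are shown to set beside those of the keratin pair further on. They are the 250 bases before the RefSeq start site in build GRCr8, 5′ to 3′ on the gene's strand, with matches to 5 short motifs in capitals.
Lmo7, chr15:84981532-84981781, + strand: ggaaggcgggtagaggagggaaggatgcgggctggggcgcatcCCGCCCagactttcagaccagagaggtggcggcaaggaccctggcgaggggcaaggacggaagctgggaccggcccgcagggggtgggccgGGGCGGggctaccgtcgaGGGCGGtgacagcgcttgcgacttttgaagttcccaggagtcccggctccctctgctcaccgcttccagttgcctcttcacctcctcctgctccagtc
Rtkn2, chr20:20608863-20609112, - strand: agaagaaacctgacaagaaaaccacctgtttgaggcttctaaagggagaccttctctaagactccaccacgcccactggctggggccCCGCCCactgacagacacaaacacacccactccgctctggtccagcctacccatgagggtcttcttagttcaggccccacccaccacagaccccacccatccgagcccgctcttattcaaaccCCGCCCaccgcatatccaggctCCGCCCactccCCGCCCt
The motifs searched on both strands were the TATA box TATAAA, the GC box GGGCGG, the TEAD motif GGAATG, the NK2 family motif CAAGTG and the AP-1 motif TGANTCA. Every capital stretch here is a GC box, the element bound by Sp1-like factors. Lmo7 had 3 matches and Rtkn2 had 4, none overlapping. A promoter entry was matched for 9 of the 10 members, and 6 of those 9 held a GC box, against 30.5% of all 33469 promoter windows of that length. TATA boxes were in 2 of the 9, Cav1 and Krt8, against 12.9% of all windows. Members were counted by gene and the shares by window. Cav1 had 2 windows, and its matches all lay in the first. The TEAD, NK2 and AP-1 letters were found in 0 of the 9, against 12.1%, 11.7% and 6.34% of all windows.

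Clic5 and Hopx also parted the groups without passing the test. Clic5, a chloride intracellular channel family protein tied to the actin cortex, stood at 931, 772 and 1037 CPM in controls and at 503, 767 and 540 CPM in MCT lung. Its highest MCT library lay just under its lowest control. Clic5 stood at -0.60 on the log2 scale (SE 0.20; edgeR adjusted p = 0.0834), a difference that DESeq2 called (adjusted p = 0.02), as did edgeR without MCT replicate 2 (adjusted p = 0.0212). Hopx, a homeodomain-only protein that marks mature type 1 cells, had 1122, 1146 and 1044 CPM in controls and 764, 1028 and 833 CPM in MCT lung. The controls lay close together and the MCT libraries spread more widely below them. For Hopx the estimate was -0.34 (log2, SE 0.16), with an adjusted p of 0.19 by edgeR. Over the 7 type 1 genes, 4 had all MCT libraries below all controls, where 17.0% of all tested genes did.

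The other 3 type 1 genes overlapped between the groups, in each case through MCT replicate 2. Ager, the receptor for advanced glycation end products and the most abundant type 1 marker of lung, stood at 1857, 1534 and 2230 CPM in controls and at 964, 2346 and 1352 CPM in MCT lung. MCT replicate 2 was the highest of all 6 libraries for Ager and MCT replicate 1 the lowest. The estimate for Ager was -0.27 (log2, SE 0.31, 95% interval -0.98 to 0.44, adjusted p = 0.607, edgeR), and without MCT replicate 2 it was -0.70 (adjusted p = 0.0822). Cav1, the caveolar coat protein shared by type 1 and endothelial cells, had 1759, 1356 and 1593 CPM in controls and 607, 1462 and 857 CPM in MCT lung. MCT replicate 1 held the lowest Cav1 level, while MCT replicate 2 lay within the controls. The Cav1 estimate was -0.69 (log2, SE 0.30, edgeR adjusted p = 0.161), and it passed without MCT replicate 2, at -1.10 (adjusted p = 0.0143). Akap5, which anchors protein kinase A at the membrane, had 100.3, 73.7 and 135 CPM in controls and 52.6, 78.2 and 67.0 CPM in MCT lung. Only MCT replicate 2 rose above the lowest Akap5 control. Akap5 gave -0.64 (log2, SE 0.23, edgeR adjusted p = 0.0996), and DESeq2 called it (adjusted p = 0.0463).

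**Figure D3:**
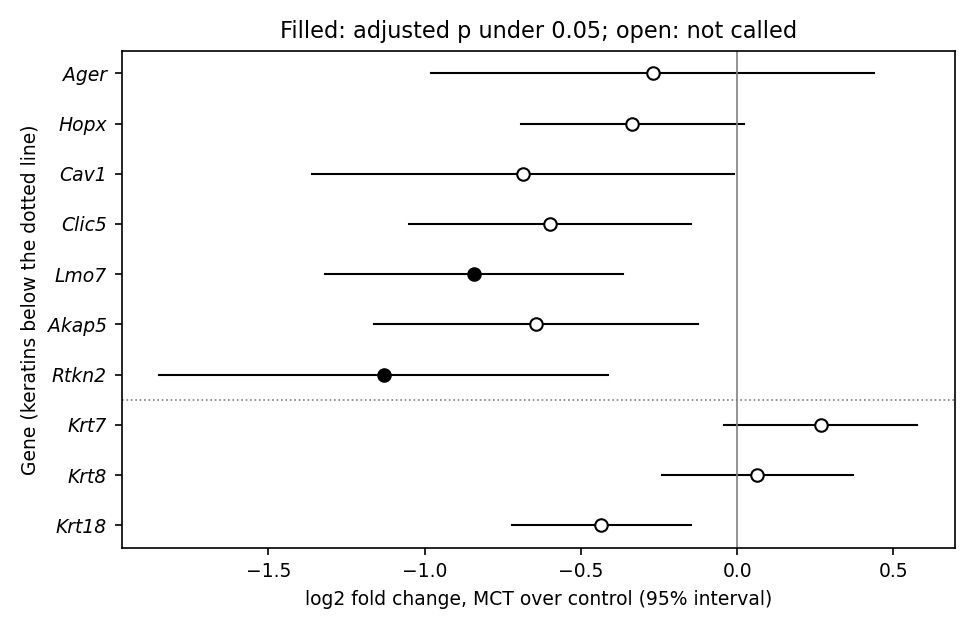
Fold change of each member, MCT over control, on a log2 scale with its 95% interval from the edgeR fit, which is not adjusted for the number of genes. Filled points passed an adjusted p under 0.05 and open points did not. All 7 type 1 genes lie left of 0, from -0.27 for Ager to -1.13 for Rtkn2, and the keratins lie on both sides.

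Krt7, a type II keratin of simple epithelia, stood at 311, 251 and 322 CPM in controls and at 353, 369 and 342 CPM in MCT lung. Every MCT library was above every control, by a small margin over control replicates 1 and 3. The Krt7 estimate was 0.27 (log2, SE 0.14, 95% interval -0.04 to 0.58, adjusted p = 0.224, edgeR). Krt8, the keratin most often used to mark the transitional state, had 241, 197 and 251 CPM in controls and 257, 226 and 238 CPM in MCT lung. The MCT libraries lay within or just above the control range. For Krt8 the estimate was 0.0645 (log2, SE 0.13, edgeR adjusted p = 0.791), with a 95% interval of -0.24 to 0.37, and it was -0.0335 without control replicate 2. Krt18, a type I partner of both, had 69.4, 58.9 and 67.0 CPM in controls and 45.8, 44.7 and 54.0 CPM in MCT lung. All 3 MCT libraries were below all 3 controls. The estimate for Krt18 was -0.43 (log2, SE 0.13, 95% interval -0.72 to -0.15, adjusted p = 0.0546, edgeR), and DESeq2 called it (adjusted p = 0.0333). Of all tested genes, 35.4% had groups that did not overlap in either direction, against these 2 of 3 keratins.

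The ratios of Krt8 and of Krt7 to Krt18, taken within each library, differed between the groups, a comparison chosen after the values were seen. They leave out Krt19, a more abundant keratin outside the set, at 257 ± 15.4 FPKM in control and 224 ± 10.1 FPKM in MCT lung (SD, n = 3). On FPKM, Krt8 over Krt18 came to 2.76, 2.65 and 2.98 for control replicates 1 to 3, whereas MCT replicates 1 to 3 gave 4.45, 4.01 and 3.49. Krt7 over Krt18 was 3.71, 3.52 and 3.95 in controls and 6.40, 6.84 and 5.24 in MCT lung. Both ratios were higher in every MCT library than in any control, and neither depends on how the libraries were scaled. The mean of Krt8 over Krt18 was 2.79 ± 0.17 in control and 3.99 ± 0.478 in MCT lung (SD, n = 3). RefSeq lists 7 genes or pseudogenes named as copies of Krt18, 1 of Krt8 and 1 of Lmo7. No source used here says how reads shared with such copies were counted, so these levels, Krt18 above all, are less certain, although every deposited count of the 10 members was a whole number.

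Krt8 and Krt18 are neighbours on 1 chromosome with no other protein-coding gene between them in RefSeq. Their upstream 250 bases are shown because the ratio of the 2 transcripts, whose proteins pair, differed between the groups. That difference was picked after the values were seen and was not tested.
Krt8, chr7:135010340-135010589, - strand: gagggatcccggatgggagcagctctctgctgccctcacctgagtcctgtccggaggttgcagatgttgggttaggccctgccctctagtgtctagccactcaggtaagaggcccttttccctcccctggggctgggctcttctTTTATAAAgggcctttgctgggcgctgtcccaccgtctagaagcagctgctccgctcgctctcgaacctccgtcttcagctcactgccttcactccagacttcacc
Krt18, chr7:135035918-135036167, + strand: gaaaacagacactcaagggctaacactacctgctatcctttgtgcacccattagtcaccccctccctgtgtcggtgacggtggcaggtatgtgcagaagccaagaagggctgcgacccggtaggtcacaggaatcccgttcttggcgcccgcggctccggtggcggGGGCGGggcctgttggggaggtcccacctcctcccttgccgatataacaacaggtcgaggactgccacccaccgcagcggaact
In Krt8 the capitals mark a TATA box that reads on both strands as 2 overlapping matches, and in Krt18 they mark 1 GC box. Neither window held a match to the other gene's element. These matches describe the letters of the window and are not measured sites.

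Set against each other within a library, the type 1 genes were lower relative to the keratins in MCT lung. The mean log2 CPM of the 7 type 1 genes minus that of the 3 keratins came to 1.53, 1.55 and 1.81 for control replicates 1 to 3, whereas MCT replicates 1 to 3 gave 0.68, 1.46 and 0.89. All MCT libraries lay below all controls, MCT replicate 2 by a narrow margin. The group means were 1.63 ± 0.16 and 1.01 ± 0.40 (SD, n = 3), a difference of -0.62 on the log2 scale, for which no test was made. The type 1 mean was 8.98 ± 0.28 log2 CPM in control and 8.33 ± 0.37 in MCT lung, against 7.35 ± 0.17 and 7.32 ± 0.04 for the keratin mean (SD, n = 3). Leaving out 1 library moved the difference between -0.85 (without MCT replicate 2) and -0.46 (without MCT replicate 1).

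**Figure D4:**
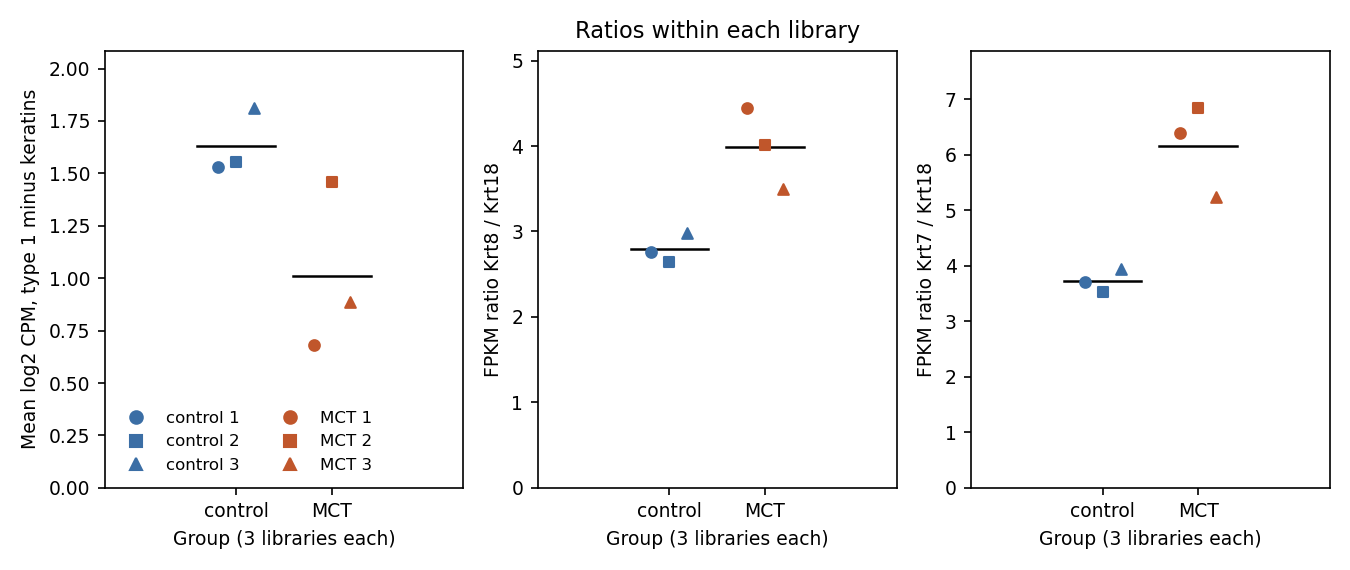
Ratios within each library: the mean log2 CPM of the type 1 genes minus that of the keratins (left), and the FPKM ratios of Krt8 and of Krt7 to Krt18 (middle and right), by group. Points are libraries, marked by replicate, and short lines are group means. Both keratin ratios are higher in every MCT library, and the left panel's MCT values run from 0.68 to 1.46 against 1.53 to 1.81 in controls.

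Of 17 other type 1 genes tested, 2 fell, 2 rose and 13 did not pass, with a median log2 fold change of -0.29. Col4a3, a basement membrane collagen chain made by type 1 cells, fell by 0.83 (log2) and Mal2, a membrane trafficking protein, fell by 0.54. Timp3, a matrix metalloprotease inhibitor outside the naming rule, rose by 0.53. Each of these 3 calls ended without 4 or 5 of the 6 libraries taken singly (adjusted p = 0.0584 to 0.108). For Col4a3 these were control replicates 1 and 3 and MCT replicates 1 and 3, for Mal2 these and control replicate 2. For Timp3 they were all except control replicate 3. With all libraries kept, Mal2 was also not called with pan-epithelial scaling or the replicate block (adjusted p = 0.0923 to 0.285), Col4a3 with that scaling (adjusted p = 0.0891) and Timp3 with the block (adjusted p = 0.0689). Other known markers, outside the rule, did not pass. Pdpn stood at 0.19 (log2, adjusted p = 0.656) and Aqp5, the water channel, at 0.06 (adjusted p = 0.881), and both estimates turned negative with replicate 2 of either group left out. Sec14l3, the most abundant of the 17, had -0.68 (adjusted p = 0.114).

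Among 7 tested keratins outside the set, 1 rose, 1 fell and 5 did not pass. Krt80 rose from 45.4 ± 8.53 to 77.5 ± 9.31 CPM (SD, n = 3), a log2 fold change of 0.77 (adjusted p = 0.0193, edgeR). Leaving out control replicate 2 or 3, or MCT replicate 1 or 3, ended this call (adjusted p = 0.0592 to 0.0639). Krt14, a basal cell keratin, fell but rests on 12 to 38 counts in controls and 3 to 8 in MCT libraries, and leaving out control replicate 1 or 3, or MCT replicate 1 or 2, ended its call (adjusted p = 0.063 to 0.11). Krt19, the most abundant of them, stood at -0.19 (log2, adjusted p = 0.346), and at 0.0538 when scaled to pan-epithelial genes. Krt17, another keratin of transitional and basal cells, had 1.21 with overlapping groups (adjusted p = 0.323). It rests on 2 to 22 counts in controls and 7 to 34 in MCT libraries.

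Of 20 tested genes used elsewhere to mark the transitional state, 7 rose, 1 fell and 12 did not pass, with a median log2 fold change of 0.66. Gdf15, a stress cytokine, rose by 2.30, Cyr61, a matricellular YAP target, by 1.57 and Lgals3, the gene of galectin-3, by 1.27 (log2). These 3 calls held in each of the 16 alternatives. The other 4 that rose, outside the rule, were Cdkn1a, Ctgf, Plaur and Sfn. Ctgf, Plaur and Sfn each lost the call without 3 to 5 of the 6 libraries taken singly (adjusted p = 0.0574 to 0.153), and Cdkn1a without control replicate 2 (adjusted p = 0.073). Ctgf and Sfn ended without control replicates 2 and 3 and MCT replicates 1 and 3, Sfn also without control replicate 1, and Plaur without control replicates 2 and 3 and MCT replicate 3. Sfn was also not called with limma-voom, either FPKM scale or the replicate block (adjusted p = 0.0511 to 0.112). Several of the 20 are also made by macrophages and mesenchymal cells. In the same libraries the macrophage marker Cd68 rose by 1.96 and the fibroblast collagen Col1a1 by 1.11 (log2). Cd68 was the only 1 of 6 tested leukocyte genes that rose, while 2 fell and their median was -0.50. Of 10 smooth muscle and fibroblast genes 4 rose and 0 fell. Pdgfra, Pdgfrb and Tcf21 of that list, outside the rule, did not pass, at -0.17, 0.12 and 0.17 (log2). The part of these cells in the values was not tested. The epithelial members differed: Sfn, an epithelial 14-3-3 protein, rose by 1.32 by the edgeR test, Itgb6, an epithelial integrin chain, fell by 0.64, and Cldn4, a tight junction claudin, had 0.25 (adjusted p = 0.53), all outside the rule. With replicate 1 or 3 of either group left out, Itgb6 was not called (adjusted p = 0.0756 to 0.125), nor was it with pan-epithelial scaling or the block (adjusted p = 0.0789 to 0.202).

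Keratin filaments attach to desmosomes, and of 10 tested genes of these links 1 rose, 2 fell and 7 did not pass. Dsc2, a desmosomal cadherin, rose from 8.24 ± 0.178 to 19.2 ± 1.97 CPM (SD, n = 3), a log2 fold change of 1.22 (adjusted p = 0.00295, edgeR). Perp, a desmosome-linked membrane protein, fell by 0.70, and Dsp, which ties keratins to the plaque, fell by 0.55 (log2). Leaving out control replicate 3 ended the call of Perp (adjusted p = 0.0647), and leaving out any 1 library other than control replicate 2 ended that of Dsp (adjusted p = 0.0868 to 0.167). With all libraries kept, Dsp was called by neither limma-voom, RLE factors, pan-epithelial scaling, the FPKM scales nor the block (adjusted p = 0.0522 to 0.284), and Perp was not called with that scaling (adjusted p = 0.0783). Around Cav1, 1 of 9 tested caveolar genes fell and 8 did not pass. This was Cav2, its partner caveolin, by 0.88, a call that ended without any 1 library other than MCT replicate 2 (adjusted p = 0.0576 to 0.0903), as it did with pan-epithelial scaling (adjusted p = 0.0751). Cavin1, which coats caveolae, stood at -0.32 (log2, adjusted p = 0.599), and at 0.015 without MCT replicate 1. Among 7 tested genes of proteins that bind the Ager receptor, 1 rose, S100a11, by 0.77, and leaving out control replicate 2 or 3, or MCT replicate 1 or 3, ended that call (adjusted p = 0.102 to 0.133). S100a9, a neutrophil and macrophage protein, stood at 18.8, 27.6 and 16.01 CPM in controls while MCT replicates 1 to 3 stood at 456, 36.5 and 22.4 CPM. Its MCT mean rests on MCT replicate 1, the library with the lowest Ager.

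Transcripts of the other cells of lung moved with the members in several places. Summed CPM of 11 endothelial genes was 3744 to 4188 in controls and 2230, 3833 and 2750 in MCT replicates 1 to 3, the same order of MCT libraries as for Ager and Cav1. Tek fell by 2.38 and Ptprb by 1.53 (log2), and of the 11, 3 fell in all and 8 did not pass. The third, Cdh5, fell by 0.82 and lost its call without any 1 library other than MCT replicate 2 (adjusted p = 0.0826 to 0.131), and with pan-epithelial scaling (adjusted p = 0.119). The median log2 fold change of the 11 was -0.37 and 8 were negative. Emcn stood at 0.32, Pecam1 at 0.17 and Vwf at 0.002, outside the rule. Summed CPM of 8 mesothelial genes was 177 to 203 in controls and 29.5, 36.04 and 42.5 in MCT lung, and 7 of 8 fell. The exception was Wt1, at -0.18 (adjusted p = 0.874), and Bnc1 stood at 0.203, 0.296 and 0.0701 CPM in MCT replicates 1 to 3. Summed CPM of the 3 keratins over the same libraries was 506 to 641 in controls and 633 to 656 in MCT lung. The part of mesothelium in the keratin levels, and that of endothelium in Cav1 and Clic5, was not tested.

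**Figure D5:**
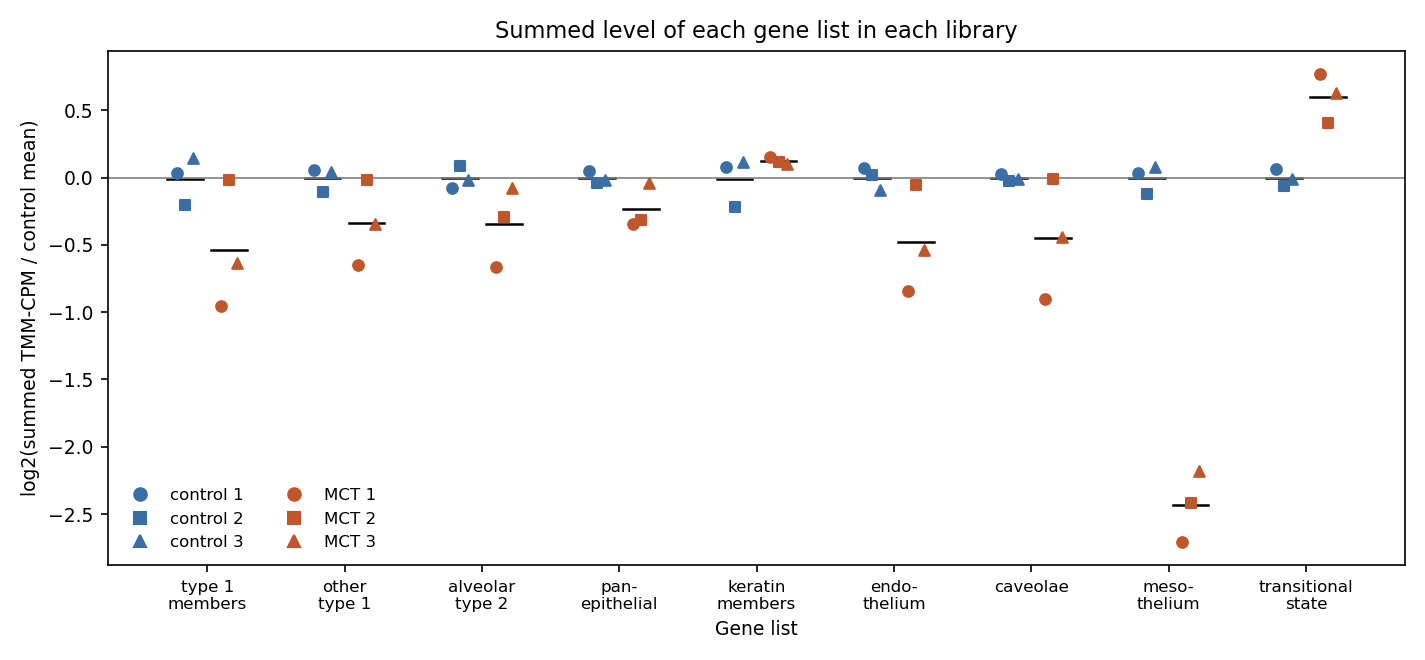
Summed TMM-CPM of 9 gene lists in each library, relative to the mean of the controls on a log2 scale. Blue points are controls, orange points MCT libraries, and short lines group means. MCT replicate 2 lies near the controls for the type 1, endothelial and caveolar lists, the mesothelial list is lower in each MCT library, and the keratin members stay close to 0.

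The members were also scaled to a list of pan-epithelial marker genes, whose median log2 fold change was -0.26. How evenly the epithelial cell types make these genes was not tested. Summed CPM of 13 such genes was 1867 to 1986 in controls and 1507, 1538 and 1859 in MCT replicates 1 to 3. Of the 13, 1 fell, Nkx2-1, the lung lineage factor, by 0.74 (log2), which was not called without control replicate 2 or 3 (adjusted p = 0.0539 to 0.0757) or on the scale of these 13 genes (adjusted p = 0.0592). Epcam, outside the rule, had -0.29 (adjusted p = 0.275). With library sizes taken from these 13 genes the median of all tested genes moved up by 0.24 (log2), 2199 genes were higher and 372 lower in place of 1221 and 779, and 0 members were called. On that scale Rtkn2 stood at -0.88, Lmo7 at -0.60, Ager at -0.02, Krt7 at 0.51, Krt8 at 0.31 and Krt18 at -0.20, so the sign of each member stayed. Relative to that median these values are -1.11, -0.82, -0.25, 0.29, 0.08 and -0.43. In the alveolar type 2 list 4 of 13 tested genes fell and 9 did not pass. Etv5 fell by 1.37 and Il33, an alarmin of rodent type 2 cells, by 1.13 (log2), calls held in each alternative. Slc34a2 fell by 1.35, and Abca3, outside the rule, by 0.62. Leaving out any 1 control or MCT replicate 2 ended the call of Slc34a2 (adjusted p = 0.06 to 0.0936). Abca3 lost the call without any of these, or without MCT replicate 1 (adjusted p = 0.0666 to 0.15). Pan-epithelial scaling or the block also ended it (adjusted p = 0.0579 to 0.172).

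By root mean square difference of centred log2 CPM over the 6 libraries, among 9713 genes with a mean of at least 10 CPM, the genes most like Ager were Gimap4 (0.0992), Vsnl1 (0.144) and G0s2 (0.151). Gimap4 ran 84.1, 69.2 and 117 CPM in controls and 39.9, 107 and 61.0 CPM in MCT lung, with MCT replicate 1 lowest and MCT replicate 2 near the top as for Ager. The genes most like Krt8, whose level barely varied, were Ppp3cb (0.0278), Rab6a (0.0342) and Ppp2r2a (0.0358). Between members the same measure was smallest for Krt7 and Krt8, at 0.126, and for Lmo7 and Akap5, at 0.133, and Krt18 was closer to Hopx (0.207) than to Krt8 (0.277). These are descriptions of 6 libraries and carry no test.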

How the data were processed

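Whole-lung RNA of 3 control and 3 MCT samples was analysed from 1 table, in which the deposited estimated counts and the authors' FPKM stand side by side per the file headers. Tools are listed in the submitters' processing notes, which give TopHat2 2.0.3.12, Bowtie2 and the build Rnor_6.0. For counting, the tool, annotation and strand setting were not given in the sources used here. Between 90.7% and 91.5% of the counts above 0 were whole per library, and counts were rounded. Groups came from sample titles. Differences were tested in R 4.3.3 with the quasi-likelihood method of edgeR 4.0.16 over all 6 libraries, with TMM, filterByExpr (minimum count 10, minimum total 15) and Benjamini-Hochberg adjustment over 15250 genes at 0.05. All adjusted p-values are from it unless another tool is named. CPM is TMM-normalized, and every log2 fold change gives MCT relative to control. The members and gene lists were chosen with earlier results of these data known. Named genes are the members and, per list, the 3 tested genes with the smallest p and the most abundant one, and 1 gene this rule names is not reported here. Alternatives were DESeq2 1.42.0, limma-voom (limma 3.58.1), RLE factors, pan-epithelial scaling, 2 other filters, FPKM with a pseudocount of 1 or 0.1, counts summed per symbol, a replicate block, and each library left out. Promoter sequences are RefSeq, GRCr8, which is not the files' build. No 2 libraries of a group were alike to within counting noise (chi-square per degree of freedom 23.5 to 53.3). The self-test on simulated counts was run before the fit. For the lists of airway secretory and basal, ciliated, smooth muscle and fibroblast, and leukocyte genes, 1, 0, 4 and 1 rose and 1, 0, 0 and 2 fell of 7, 8, 10 and 6 tested.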

Additional observations from a re-analysis of the deposited data

How the results depend on the processing

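The number of members lower in MCT lung was 2, and 5 with DESeq2, 1 with limma-voom, 1 on each FPKM scale, 0 when scaled to the pan-epithelial list and 0 with the replicate block, and it ran from 0 to 4 with a library left out. No member was called higher in any alternative. Rtkn2 was not called with limma-voom (-1.05), pan-epithelial scaling (-0.88), the FPKM scales (-1.01 and -1.07) or the replicate block (-1.05), and ran from -1.35 to -0.65 with a library left out. Lmo7 was not called with pan-epithelial scaling (-0.60) or the replicate block (-0.82), and ran from -0.998 to -0.60. DESeq2 called Clic5 (-0.60), Akap5 (-0.64) and Krt18 (-0.43). With a library left out, Clic5 ran from -0.81 to -0.48, Cav1 from -1.10 to -0.43 and Krt8 from -0.0335 to 0.14. The 7 type 1 genes were negative in each of the 16 alternatives, and the type 1 minus keratin difference ran from -0.85 to -0.46 with a library left out. The cause of these changes was not tested, other than that fewer samples enter when one is left out. Deviations of same-numbered samples correlated at -0.05, -0.06 and 0.02. With 3 samples per group, these values cannot decide whether the numbers pair the samples. With the block, 917 genes were higher and 546 lower over all genes, against 1221 and 779. No control sample correlated best with its own number. Over all genes, DESeq2 gave 1601 higher and 1182 lower, and leaving out a library gave 481 to 1394 higher and 212 to 978 lower. Transitional genes that rose numbered 3 to 11 over the alternatives, other type 1 genes that fell 0 to 4, type 2 genes that fell 2 to 5, endothelial genes that fell 2 to 5 and mesothelial genes that fell 4 to 7, the 4 with the stricter filter, which keeps fewer genes.

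Small values that turned sign were Krt19 at 0.0538, Spint2 at 0.15 and Wt1 at 0.0771 with pan-epithelial scaling. With a library left out, Anxa1 ran from -0.0669 to 0.14, Cavin1 from -0.6956 to 0.015, Spint2 from -0.1771 to 0.0442, Wt1 from -1.07 to 0.30, Pdpn from -0.0162 to 0.399 and Aqp5 from -0.1591 to 0.2072. Type 1 and keratin levels rest on 394 to 41361 counts per library. How far depth or the spread between libraries limits them was not tested.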
